A study of Mus musculus with 11 samples.

Results

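Amino acid transporter genes were examined in CD34+ keratinocytes, set against CD34- keratinocytes, both from the back skin of K5-myrAkt(L84) transgenic mice. The genes were taken by name: every gene whose single array annotation symbol belongs to the solute carrier families Slc1, Slc3, Slc6, Slc7, Slc36, Slc38 or Slc43 with a plain number. This gave 58 of the 18193 genes with a single symbol, each read from its probe set with the highest mean signal. All 11 arrays came from mice that carry the transgene, in which the keratin 5 promoter drives a membrane-targeted, active form of the kinase Akt in basal keratinocytes and hair follicles. Cells were labelled with an antibody against CD34, which marks the surface of follicle bulge stem cells, and separated with magnetic beads into 5 CD34+ and 6 CD34- samples. The labels give no age, sex or hair cycle stage, and none tells if each array is a mouse of its own. P-values therefore measure only how much these samples vary, which may be technical. Mice without the transgene were not analysed here, so the effect of Akt itself was not compared. By their cell type label the CD34- samples, too, are follicle stem cells.

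Cells take up amino acids through carriers that differ in substrate and in driving force. Heteromeric carriers pair a light chain of the Slc7 family, which binds the amino acid, with a heavy chain of the Slc3 family, which brings the pair to the cell surface. Slc38 and Slc1 carriers use the sodium gradient to concentrate glutamine, alanine, glutamate and similar substrates, and members of the Slc36 family such as Slc36a1 move small amino acids with protons, also across the lysosomal membrane. The Slc6 family holds amino acid carriers and also those for serotonin, noradrenaline, taurine and creatine. Amino acids that enter the cell or leave the lysosome are sensed by mTORC1, a kinase complex that acts downstream of Akt.

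The deposited values are log2 signals made with MAS5, and each array's trimmed mean was 500.002 to 500.004 in linear units. Cd34 averaged 11.83 ± 1.17 in CD34+ samples (SD, n = 5) and 4.20 ± 1.57 in CD34- samples (SD, n = 6), and Krt5, a keratin of basal keratinocytes, averaged 14.94 ± 0.27 and 15.02 ± 0.17 on the same arrays. The log2 ratio of the 3-prime to the 5-prime actin control, which rises as RNA becomes shorter, was 2.91 to 5.25 on CD34+ arrays and 2.19 to 2.76 on CD34- arrays. The groups did not overlap in this ratio. They did overlap in the same ratio of the Gapdh control, at 2.96 to 3.69 on CD34+ arrays and 3.00 to 3.43 on CD34- arrays. CD34+ array 1 had the highest actin ratio. That array also stood farthest from the others, with no correlation above 0.90 to any of them across the tested genes. Of the 28 tested transporter genes, 22 had the larger SD among CD34+ arrays, as had 78.8% of all tested genes, and CD34+ array 1 was the lowest of its group for 17, against 30.5% of all tested genes.

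Of the 58 transporter genes, 28 passed a filter that left out the dimmest 40% of genes. In CD34+ cells 5 of these were higher and 6 lower, which is 17.9% and 21.4% of those tested, while 17 were not called. A gene was called at a limma adjusted p under 0.05, adjusted over all 10916 genes tested. Of all tested genes 12.4% were called higher, 12.3% lower and 24.7% in either direction. The members that rose were Slc38a4, Slc38a6, Slc38a9 and Slc38a10 of the Slc38 family and Slc36a4 of the Slc36 family. Those that fell were the light chains Slc7a5 and Slc7a6, the cationic carrier Slc7a1, the glutamate carriers Slc1a1 and Slc1a3, and the serotonin transporter Slc6a4. In 3 of the genes that rose and 3 of those that fell the groups did not overlap, together 21.4% of the 28 tested genes. Of all tested genes the groups did not overlap in 15%, with 7.64% higher and 7.37% lower. The median difference of the 28 genes was -0.12, that of all tested genes -0.00. Slc38a4 passed the brightness filter only through its CD34+ values, and Slc1a1 and Slc1a3 only through their CD34- values.

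The actin ratio differed between the groups that these calls compare. With the ratio of each array as a covariate, none of the 28 genes was called and 1.15% of all tested genes were. The directions of the 11 called genes were the same in that fit, and the part of RNA length in the differences was not tested further. When the arrays were instead scaled to equal medians, the median difference of all tested genes was -0.48, and 2 members, Slc38a4 and Slc38a6, were called higher and 15 lower, among them the heavy chain gene Slc3a2. Under that scaling 3.62% of all tested genes were called higher and 47.8% lower, so the count of lower members lies near the background. In bulk samples such as these, fewer cells of a type and less RNA per cell cannot be told apart.

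**Figure D1:**
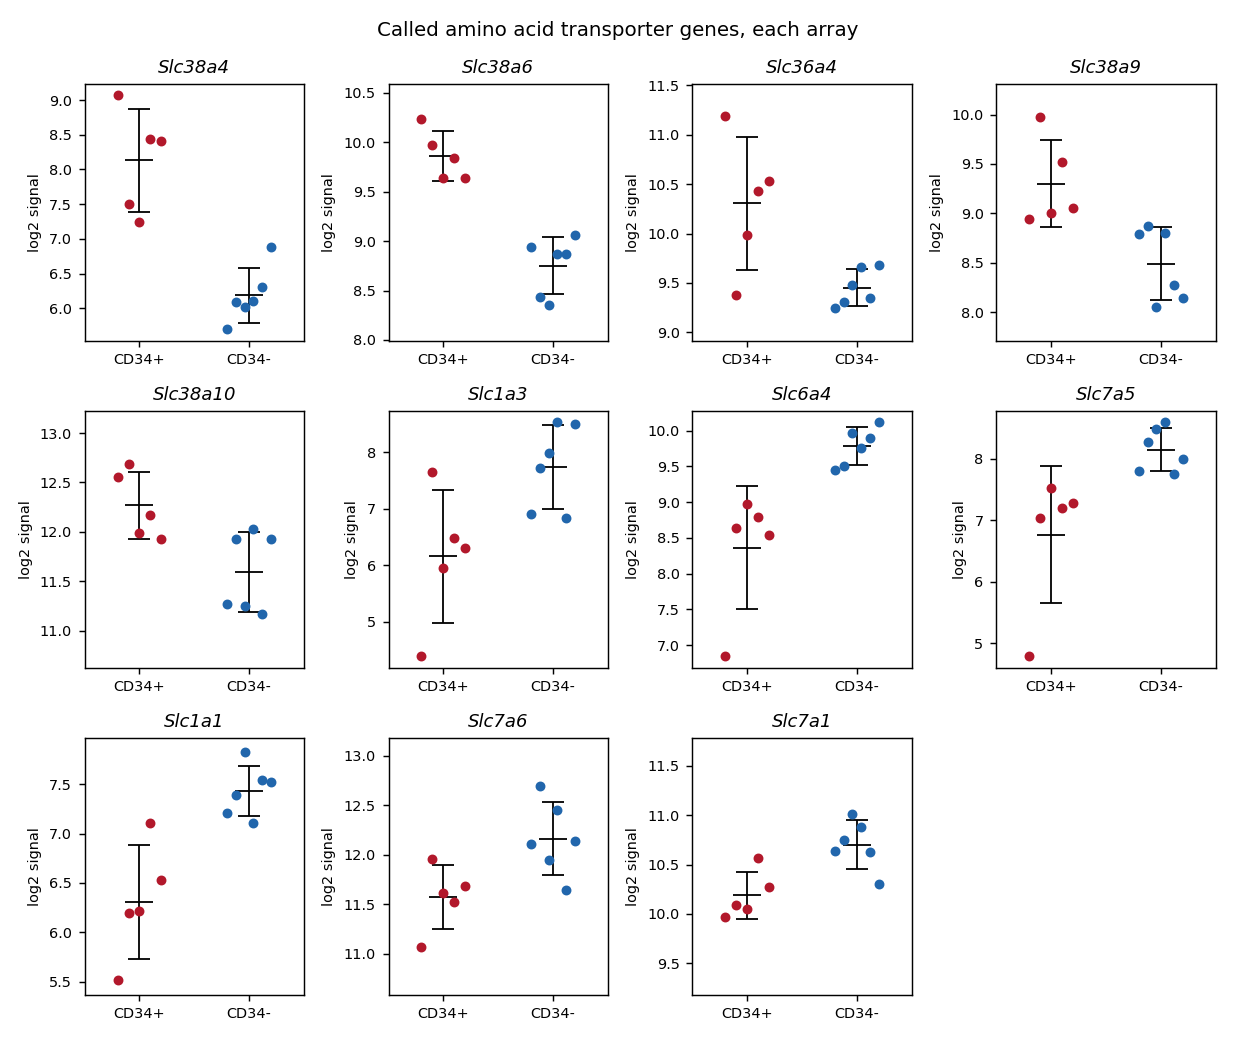
Log2 signal of the 11 called transporter genes on each array, CD34+ left and CD34- right in each panel, with the mean and SD as black bars. The groups did not overlap for Slc38a4, Slc38a6, Slc38a9, Slc6a4, Slc7a5 and Slc1a1, the last by a narrow margin, and CD34+ array 1 lay low in Slc7a5, at 4.79, and in Slc6a4, at 6.85.

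Slc38a4, a carrier of neutral and cationic amino acids whose mouse gene is imprinted, had the highest difference of the tested members. Its log2 signal was 9.07, 7.50, 7.24, 8.44 and 8.40 on CD34+ arrays 1 to 5, and on CD34- arrays it ran from 5.70 through a median of 6.10 to 6.88. Every CD34+ array lay above every CD34- array. On the log2 scale the difference was 1.95 (SE 0.33, adjusted p = 0.00148), a 3.85-fold higher signal. Its other probe set was too dim to be tested and differed by 0.96. In the mouse genome the gene lies next to Slc38a2 and Slc38a1, which were not called.

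Slc38a6, a family member whose substrates are less well described, had the smallest p of the tested transporters. CD34+ arrays 1 to 5 gave 10.24, 9.97, 9.63, 9.84 and 9.64, against 8.35 to 9.06 with a median of 8.87 on CD34- arrays. The groups lay apart, with a log2 difference of 1.11 (SE 0.17, adjusted p = 0.000669), or 2.16-fold. Both Slc38a4 and Slc38a6 kept their calls with each array left out in turn and with equal array medians. Slc38a4 was tested only because of its CD34+ values, as its CD34- mean of 6.18 lay under the filter value of 6.59.

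Slc38a9 encodes a lysosomal membrane protein that reports arginine in the lysosome to mTORC1. Its log2 signal was 8.94, 9.97, 9.001, 9.52 and 9.06 on CD34+ arrays and 8.06 to 8.88 on CD34- arrays, with a median of 8.53 there. The lowest CD34+ array lay just above the highest CD34- array. This gave a log2 difference of 0.81 (SE 0.22, adjusted p = 0.0196), but the gene's probe sets did not move together. Of 5 others that passed the filter, 1 was also called higher (0.76, adjusted p = 0.0182), 1 gave 0.56 without a call and 3 gave -0.20, -0.31 and -0.29, none of them called. With the mean of its probe sets the difference of Slc38a9 was 0.23 (adjusted p = 0.417).

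Slc38a10, a member of little known function, showed the same split. It measured 12.56, 12.69, 11.99, 12.17 and 11.93 on CD34+ arrays 1 to 5 and 11.17 to 12.03 on CD34- arrays, with a median of 11.60, so that the groups overlapped. The log2 difference came to 0.67 (SE 0.20, adjusted p = 0.0267). None of its 5 other probe sets past the filter was called, and 3 of them had negative differences, of -0.13, -0.61 and -0.27. Averaged over probe sets, Slc38a10 differed by 0.23 (adjusted p = 0.356). Its call was also lost in 4 of the 11 fits without 1 array, namely without CD34+ array 2 or CD34- array 1, 3 or 5, and without CD34+ arrays 1 and 2 (0.44, adjusted p = 0.154).

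The other tested Slc38 members were not called. Slc38a2, a carrier of alanine, glutamine and other small neutral amino acids that is induced when amino acids run short, was the brightest transporter of all. It measured 13.37 ± 0.20 in CD34+ samples (SD, n = 5) and 13.11 ± 0.16 in CD34- samples (SD, n = 6), with a log2 difference of 0.27 (adjusted p = 0.106). Slc38a1, a glutamine carrier, ranged from 6.44 to 8.71 on CD34+ arrays and from 7.57 to 8.47 on CD34- arrays (-0.42, adjusted p = 0.389). It gave -0.12 without CD34+ array 1 and -0.69 without CD34+ array 2, neither of them called. With the mean of its probe sets Slc38a1 was called lower (-0.83, adjusted p = 0.041). Slc38a7, which exports glutamine from the lysosome, differed by -0.20 (95% interval -0.48 to 0.08, adjusted p = 0.279).

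Slc36a4, a carrier with high affinity for proline and tryptophan that is not coupled to protons, rose. Its log2 signal was 11.19, 9.38, 9.99, 10.43 and 10.54 on CD34+ arrays 1 to 5 and ran from 9.24 through 9.41 to 9.68 on CD34- arrays. CD34+ array 2 lay within the CD34- range and the other CD34+ arrays above it. The log2 difference was 0.85 (SE 0.25, adjusted p = 0.0239), or 1.80-fold, and it was 0.37 (adjusted p = 0.277) with equal array medians. Slc36a1, the lysosomal member that exports small neutral amino acids, differed by -0.15 (95% interval -0.54 to 0.23, adjusted p = 0.561).

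**Figure D2:**
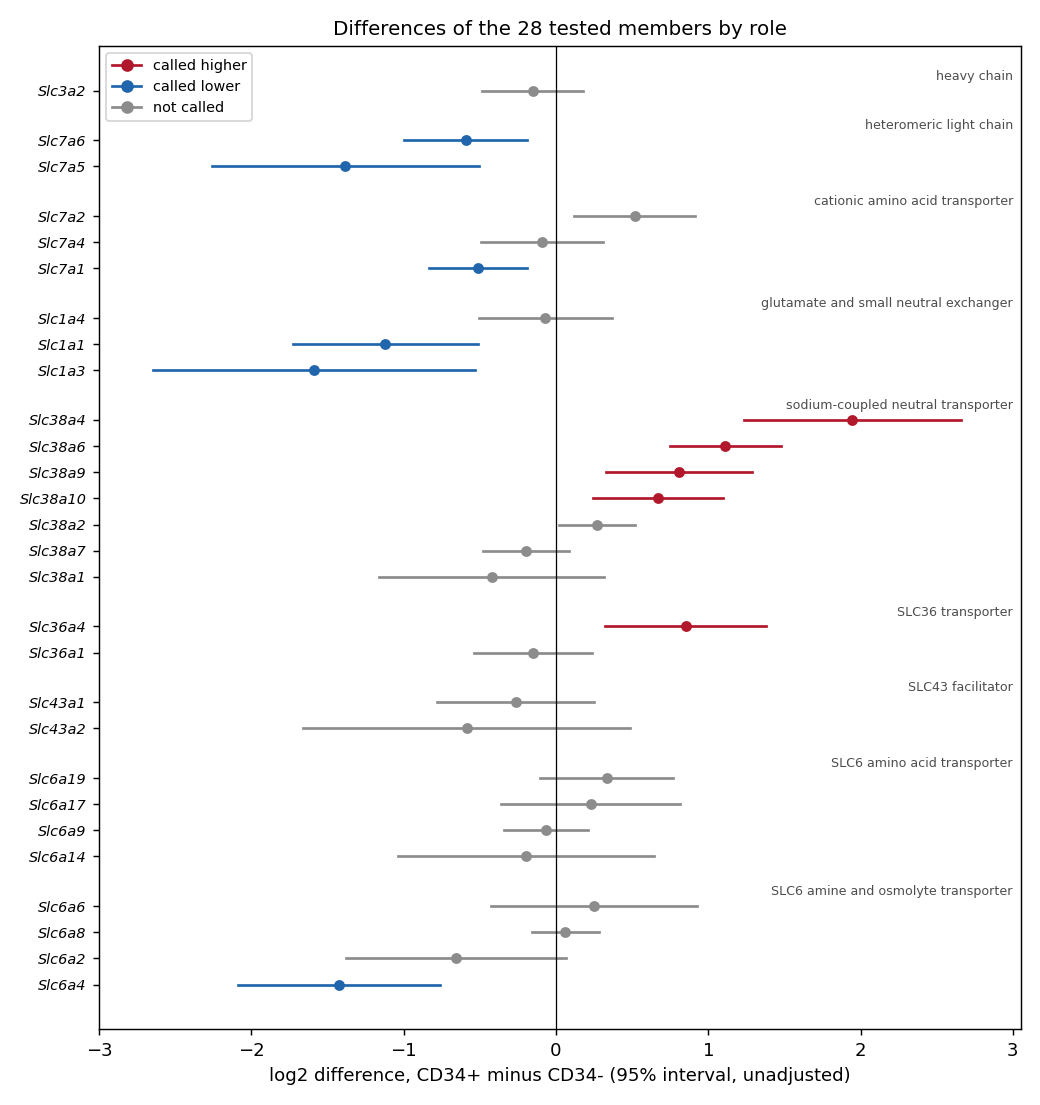
Log2 difference of each of the 28 tested transporter genes, CD34+ minus CD34-, with its unadjusted 95% interval from the limma model, grouped by role. Intervals to the right of 0 mean higher in CD34+ cells: 4 of 7 tested Slc38 genes were called higher and none lower, and both tested light chains were called lower. The Slc38 genes are drawn as sodium-coupled neutral transporters by family, not by a shown function of each. Slc38a1 and Slc38a2 were not called. Of all tested genes 12.4% were called higher and 12.3% lower. Slc38a9 and Slc38a10 were not called with the mean of their probe sets, and Slc7a6 lost its call in 6 of the 11 fits without 1 array.

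Among the heteromeric carriers, Slc7a5 fell. It encodes LAT1, which exchanges leucine and other large neutral amino acids and is a known supplier of amino acids for mTORC1. Its log2 signal was 4.79, 7.03, 7.52, 7.20 and 7.28 on CD34+ arrays 1 to 5, against 7.76 to 8.59 with a median of 8.14 on CD34- arrays. All CD34+ arrays were below all CD34- arrays, and array 1 was far below the rest. On the log2 scale the difference was -1.38 (SE 0.41, adjusted p = 0.0265), which is 2.61-fold lower. Without CD34+ array 1 it was -0.89 (adjusted p = 0.0087), with the call kept. The difference was -1.07 once dim values were raised to each array's 40th percentile, and -0.12 (adjusted p = 0.953) with the actin covariate. The call was also lost without CD34- array 3 (adjusted p = 0.056) or CD34- array 4 (adjusted p = 0.0577). Only 1 probe set of this gene was read.

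Slc7a6, the light chain of a carrier that exchanges cationic for neutral amino acids, was the brightest light chain. It measured 11.07, 11.96, 11.62, 11.52 and 11.69 on CD34+ arrays and 11.64 to 12.69 on CD34- arrays, with a median of 12.13. The ranges overlapped and the log2 difference was -0.59 (SE 0.19, adjusted p = 0.0354), or 1.51-fold lower. A second probe set fell by 0.90 on the log2 scale (adjusted p = 0.00475). The call of the brighter probe set was lost in 6 of the 11 fits without 1 array (CD34+ 1 or 4, CD34- 1, 2, 4 or 6) and after quantile normalization (-0.50, adjusted p = 0.0769).

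Their shared heavy chain Slc3a2, also known as CD98 heavy chain, was not called. It measured 11.66, 10.76, 11.33, 10.95 and 11.19 on CD34+ arrays and 11.13 to 11.50 on CD34- arrays, with a median of 11.35. This gave a log2 difference of -0.15 (95% interval -0.48 to 0.18, adjusted p = 0.49), and -0.27 (adjusted p = 0.145) without CD34+ array 1. The responses of the light chains were set against that of the heavy chain on the same arrays, a pair of tests chosen after the values were seen. The log2 difference of Slc7a5 minus that of Slc3a2 was -1.23 (two-sided exact permutation test over arrays, p = 0.00433, adjusted p = 0.00866 over 2 tests). Without CD34+ array 1 it was -0.62 and no longer called (exact permutation p = 0.0286, adjusted p = 0.0571). With the actin covariate Slc7a5 differed by -0.12 and Slc3a2 by -0.35, neither of them called, so Slc7a5 no longer fell by more. The comparison itself was not fitted with that covariate. For Slc7a6 minus Slc3a2 the log2 difference on all arrays was -0.44 (exact permutation p = 0.229, adjusted p = 0.229). No difference between this light chain and the heavy chain was detected. The other heavy chain gene, Slc3a1, which pairs with the cystine carrier of kidney and gut, was under the filter at 5.72 on CD34+ arrays and 5.67 on CD34- arrays.

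Slc7a1, a carrier of arginine, lysine and ornithine that works without a heavy chain, fell by a small amount. Its log2 signal was 9.97, 10.09, 10.05, 10.56 and 10.27 on CD34+ arrays and 10.30 to 11.01 on CD34- arrays, with a median of 10.70. CD34+ array 4 was the sole CD34+ array above the lowest CD34- array. The log2 difference came to -0.51 (SE 0.15, adjusted p = 0.0252), or 1.43-fold lower. Its second probe set past the filter was not called (-0.38, adjusted p = 0.315), and with the mean of its probe sets Slc7a1 was not called either (-0.31, adjusted p = 0.237). The call was lost without CD34+ arrays 1 and 2 (-0.41, adjusted p = 0.107) and in 2 of the 11 fits without 1 array, those without CD34- array 3 or 4. Slc7a2, a related carrier of cationic amino acids, went the other way without a call (0.52, adjusted p = 0.0558, and 0.57 with adjusted p = 0.0489 without CD34+ array 3), and Slc7a4 gave -0.09 (adjusted p = 0.74).

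Of the Slc1 family, the glutamate carriers Slc1a1 and Slc1a3 fell. Slc1a1, which also takes up cysteine, measured 5.51, 6.19, 6.22, 7.10 and 6.53 on CD34+ arrays and 7.11 to 7.82 on CD34- arrays, with a median of 7.46. The highest CD34+ array and the lowest CD34- array were almost equal. The log2 difference was -1.12 (SE 0.28, adjusted p = 0.0127), and a second probe set was also called (-1.76, adjusted p = 0.0421), with -1.04 when CD34+ array 1 was left out. On 2 of the 5 CD34+ arrays Slc1a1 lay under the array's 40th percentile, and raised to it the difference was -0.86. Without CD34+ arrays 1, 2 and 3 the difference was -0.62 and the call was lost (adjusted p = 0.125).

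Slc1a3, the glial type of glutamate carrier, was read from a probe set that may bind related sequences, as its x suffix says. It measured 4.39, 7.64, 5.95, 6.49 and 6.31 on CD34+ arrays and 6.83 to 8.53 on CD34- arrays, with a median of 7.85. CD34+ array 2 lay among the CD34- arrays. On the log2 scale the difference was -1.59 (SE 0.49, adjusted p = 0.0323). Of its other probe sets past the filter 1 was called lower (-1.05, adjusted p = 0.0347) and 1 was not (-0.36, adjusted p = 0.376). The call was lost in 5 of the 11 fits without 1 array (CD34+ 3, CD34- 2, 3, 4 or 6). Slc1a4, a carrier of alanine, serine and cysteine and the brightest Slc1 gene, averaged 9.10 ± 0.48 in CD34+ samples (SD, n = 5) and 9.17 ± 0.23 in CD34- samples (SD, n = 6) (-0.07, adjusted p = 0.826). With the mean of its probe sets, of which the others were dim, Slc1a4 differed by -1.01 (adjusted p = 0.0119).

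**Figure D3:**
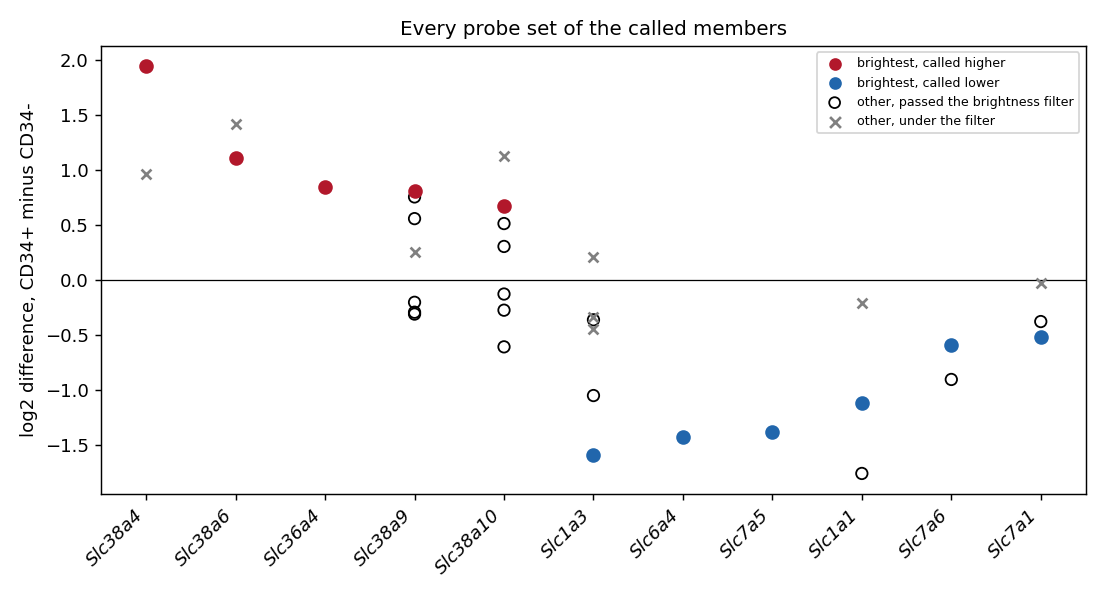
Log2 difference, CD34+ minus CD34-, of every probe set of the 11 called genes, with filled points for the brightest probe set, open circles for others past the brightness filter and crosses for those under it. Open circles lie on both sides of 0 for Slc38a9 and Slc38a10 and below 0 for Slc1a1, Slc1a3, Slc7a6 and Slc7a1.

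In the Slc6 family Slc6a4, the serotonin transporter, fell. It measured 6.85, 8.64, 8.98, 8.79 and 8.55 on CD34+ arrays 1 to 5 and ran from 9.45 through 9.83 to 10.12 on CD34- arrays. No CD34+ array reached the CD34- range. This gave a log2 difference of -1.43 (SE 0.31, adjusted p = 0.00578), or 2.69-fold lower, and -1.05 without CD34+ array 1. Slc6a2, the noradrenaline transporter, ranged from 8.66 to 10.96 on CD34+ arrays and from 10.24 to 11.20 on CD34- arrays and was not called (-0.66, adjusted p = 0.164). Without CD34+ array 1 Slc6a2 differed by -0.27 (adjusted p = 0.356). The other tested Slc6 genes were not called either. The brightest were the taurine carrier Slc6a6 at 12.38 ± 0.73 (SD, n = 5) and 12.13 ± 0.56 (SD, n = 6) on CD34+ and CD34- arrays, and the creatine carrier Slc6a8 at 12.02 ± 0.13 (SD, n = 5) and 11.96 ± 0.10 (SD, n = 6). The probe sets of Slc6a6 did not move together. The brightest differed by 0.25, and others past the filter by -0.87 (adjusted p = 0.0805) and 0.04, none of them called. Slc6a8 had the narrowest interval of the tested transporters (0.06, 95% interval -0.16 to 0.28), but it differed by -0.42 (adjusted p = 0.033) with equal array medians. The glycine carrier Slc6a9 gave -0.07 (95% interval -0.34 to 0.21), and Slc6a14, Slc6a17 and Slc6a19, carriers of neutral amino acids, gave -0.20, 0.23 and 0.33.

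Both tested Slc43 genes, facilitators of large neutral amino acids, were not called. Slc43a2 measured 11.43, 11.54, 11.31 and 11.31 on CD34+ arrays 2 to 5 and 8.01 on CD34+ array 1, against 11.03 to 11.78 on CD34- arrays. Apart from array 1 the CD34+ arrays lay within the CD34- range. The log2 difference came to -0.58 (95% interval -1.66 to 0.49, adjusted p = 0.413). Leaving out CD34+ array 1 turned the sign, to 0.094 (adjusted p = 0.67). Slc43a1 differed by -0.26 (adjusted p = 0.444).

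**Figure D4:**
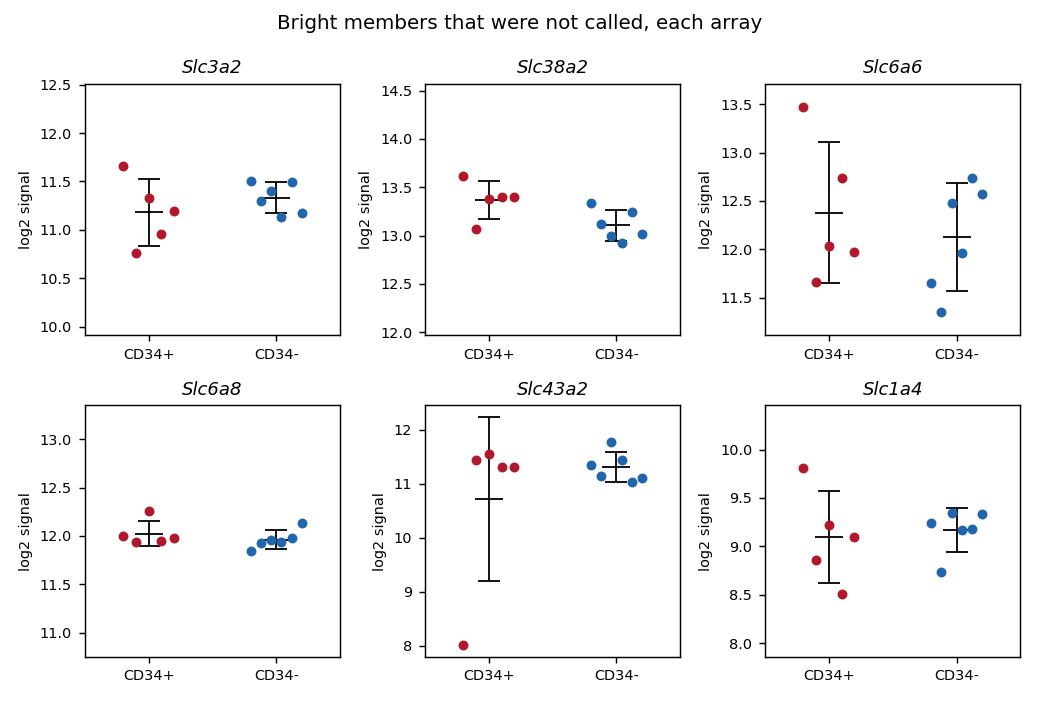
Log2 signal of 6 bright transporter genes that were not called, on each array, CD34+ left and CD34- right, with the mean and SD as black bars. The groups overlap in every panel, and in Slc43a2 CD34+ array 1 lies at 8.01 while the other 10 arrays lie between 11.03 and 11.78.

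The remaining 30 transporter genes were under the brightness filter and were not tested, with mean log2 signals between 2.71 and 6.50. They were Slc1a2, Slc1a5, Slc1a6, Slc1a7, Slc3a1, Slc36a2, Slc36a3, Slc38a3, Slc38a5, Slc43a3, Slc6a3, Slc6a5, Slc6a7, Slc6a11, Slc6a12, Slc6a13, Slc6a15, Slc6a16, Slc6a18, Slc6a21, Slc7a3, Slc7a7, Slc7a8, Slc7a9, Slc7a10, Slc7a11, Slc7a12, Slc7a13, Slc7a14 and Slc7a15. Their means were higher on CD34+ arrays for 26 of 30, or 86.7%, while this held for 81.3% of all genes under the filter, so dim genes in general read higher on CD34+ arrays. Slc7a8, or LAT2, a light chain that carries neutral amino acids like LAT1, measured 8.48, 7.75, 5.98, 6.39 and 5.86 on CD34+ arrays and averaged 5.00 ± 1.26 (SD, n = 6) on CD34- arrays. Slc1a5, or ASCT2, a glutamine exchanger, was one of the 4 with a lower mean in CD34+ cells, at 5.97 ± 0.64 (SD, n = 5) and 6.74 ± 0.38 (SD, n = 6) on CD34+ and CD34- arrays. The cystine light chain Slc7a11 was dim in both groups, at 4.44 ± 1.07 (SD, n = 5) and 3.93 ± 1.14 (SD, n = 6).

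Promoter windows of the tested genes, from 250 bases before to 50 after a transcript start, were searched on both strands for TGATGNAA, the core of the element through which Atf4 answers amino acid shortage, and for CACGTG, the E-box bound by Myc and by the lysosomal regulator Tfeb. RefSeq (GRCm38.p6) windows were found for 21 of the 28 genes. None of the 10 called genes with a window held either motif. Among the genes that were not called, Slc1a4 held TGATGNAA, and Slc36a1, Slc38a7 and Slc43a1 held CACGTG. Of all 32851 windows, 3.97% held the first and 7.15% the second. The windows of Slc38a6, Slc38a9 and Slc1a1, whose groups did not overlap, and of 3 genes with a match are shown 5′ to 3′ on the strand of the gene, with matches in capitals.
Slc38a6 (chr12:73286598-73286897, plus strand): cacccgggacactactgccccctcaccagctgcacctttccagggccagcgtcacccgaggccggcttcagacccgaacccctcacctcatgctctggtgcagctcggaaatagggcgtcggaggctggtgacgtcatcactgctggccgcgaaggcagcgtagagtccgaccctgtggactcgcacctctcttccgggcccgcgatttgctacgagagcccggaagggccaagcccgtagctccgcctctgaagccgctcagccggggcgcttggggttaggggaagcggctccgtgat
Slc38a9 (chr13:112660516-112660815, plus strand): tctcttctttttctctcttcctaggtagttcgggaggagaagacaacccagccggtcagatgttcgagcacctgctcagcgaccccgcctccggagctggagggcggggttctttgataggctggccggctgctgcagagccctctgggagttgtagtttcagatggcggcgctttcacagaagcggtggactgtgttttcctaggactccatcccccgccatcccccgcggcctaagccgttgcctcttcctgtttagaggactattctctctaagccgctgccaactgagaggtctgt
Slc1a1 (chr19:28834885-28835184, plus strand): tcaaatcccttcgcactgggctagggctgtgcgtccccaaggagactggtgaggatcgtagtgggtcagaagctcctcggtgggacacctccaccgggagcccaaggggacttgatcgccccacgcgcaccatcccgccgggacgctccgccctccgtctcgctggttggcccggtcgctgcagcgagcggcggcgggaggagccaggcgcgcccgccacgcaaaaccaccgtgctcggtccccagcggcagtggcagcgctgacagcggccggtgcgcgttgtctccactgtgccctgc
Slc1a4 (chr11:20332664-20332963, minus strand): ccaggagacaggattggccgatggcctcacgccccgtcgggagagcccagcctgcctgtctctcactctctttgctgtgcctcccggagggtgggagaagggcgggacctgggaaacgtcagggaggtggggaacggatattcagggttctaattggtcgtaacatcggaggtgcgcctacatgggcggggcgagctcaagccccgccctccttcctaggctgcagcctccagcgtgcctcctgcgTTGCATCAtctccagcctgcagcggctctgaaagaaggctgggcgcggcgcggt
Slc36a1 (chr11:55204090-55204389, plus strand): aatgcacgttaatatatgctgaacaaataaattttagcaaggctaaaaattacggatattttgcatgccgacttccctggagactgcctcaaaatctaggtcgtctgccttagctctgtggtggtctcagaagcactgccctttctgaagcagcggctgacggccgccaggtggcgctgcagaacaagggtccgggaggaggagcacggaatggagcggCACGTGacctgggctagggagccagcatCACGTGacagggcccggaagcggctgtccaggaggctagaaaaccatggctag
Slc38a7 (chr8:95853442-95853741, minus strand): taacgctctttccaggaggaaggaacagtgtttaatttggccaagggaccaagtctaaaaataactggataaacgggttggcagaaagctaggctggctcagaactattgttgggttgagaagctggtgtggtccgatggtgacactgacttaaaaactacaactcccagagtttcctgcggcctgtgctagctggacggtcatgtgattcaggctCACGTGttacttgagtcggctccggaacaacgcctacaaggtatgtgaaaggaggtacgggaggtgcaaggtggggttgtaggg
The match in Slc1a4 is of TGATGNAA on the opposite strand, and Slc36a1 holds 2 E-boxes. A match or its absence in these windows is a description of the letters.

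Other genes of amino acid biology moved in both directions. Over 5 lists, 96 different genes were tested, of which 7 were higher and 16 lower in CD34+ cells. These are 7.29% and 16.7% of the lists, where all tested genes had 12.4% higher and 12.3% lower. The share in either direction was 24%, near the 24.7% of all tested genes. Of 14 amino acid carriers of other families 2 rose and 1 fell. Slc66a1, which exports cationic amino acids from the lysosome, measured 7.71 to 9.43 on CD34+ arrays and 7.22 to 7.48 on CD34- arrays (1.00, SE 0.26, adjusted p = 0.0141). Slc25a29, a mitochondrial carrier of basic amino acids, also rose (0.87, SE 0.23, adjusted p = 0.0158), and the lysosomal histidine and peptide carrier Slc15a4 fell (-0.90, SE 0.20, adjusted p = 0.00685). With the mean of its probe sets Slc15a4 differed by 0.020.

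Of 25 enzymes of amino acid synthesis and breakdown, 6 fell and 1 rose, with a median difference of -0.13. Over all tested genes 12.3% were called lower and 12.4% higher. Oat, which makes glutamate semialdehyde from ornithine, measured 10.65, 10.97, 11.31, 11.07 and 11.21 on CD34+ arrays and 12.07 to 12.35 on CD34- arrays. It fell by 1.20 on the log2 scale (SE 0.13, adjusted p = 3.56e-05) and was the sole gene of these lists still called with the actin ratio as a covariate. Arg1, which splits arginine into ornithine and urea, rose (1.09, SE 0.16, adjusted p = 0.000595), at 9.18 to 9.60 on CD34+ arrays and 7.94 to 8.70 on CD34- arrays. The alanine aminotransferase Gpt (-0.96, adjusted p = 0.00608) and the cystathionine synthase Cbs (-0.78, adjusted p = 0.0145) fell.

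In the Atf4 amino acid response 5 of 21 genes fell and 2 rose, with a median difference of 0.07. For this list and those that follow, the shares over all tested genes were 12.3% lower and 12.4% higher. Cebpg, a partner of Atf4 on DNA (-0.71, SE 0.13, adjusted p = 0.00254), the mTORC1 inhibitor gene Ddit4 (-1.02, SE 0.26, adjusted p = 0.0133) and Cebpb, which encodes another transcription factor (-0.50, adjusted p = 0.0307) fell. Trib3 (0.51, adjusted p = 0.0381) and the lipoprotein receptor gene Vldlr (0.76, adjusted p = 0.0495) rose. Without CD34+ array 1, Vldlr differed by 0.49 (adjusted p = 0.0776). Of 24 genes that sense amino acids upstream of mTORC1, 1 rose and 2 fell, with a median of 0.14. Lamtor1, which anchors the Rag GTPases on the lysosome, rose (0.47, SE 0.10, adjusted p = 0.00451), while the GTPase gene Rraga (-1.22, SE 0.35, adjusted p = 0.0243) and Seh1l of the GATOR2 complex (-0.67, SE 0.18, adjusted p = 0.016) fell. With equal array medians Lamtor1 differed by -0.011. Of 19 aminoacyl-tRNA synthetase genes 1 rose, Aars (0.41, adjusted p = 0.0358), and 3 fell, Kars (-0.53, adjusted p = 0.00955), Rars (-0.55, adjusted p = 0.0442) and Tars (-0.43, adjusted p = 0.0435), with a median of -0.03. Aars differed by -0.070 with equal array medians, and Rars by -0.35 (adjusted p = 0.0481) without CD34+ array 1. The calls of Trib3, Vldlr, Cebpb, Rraga, Aars, Rars and Tars were each lost in some of the fits without 1 array.

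**Figure D5:**
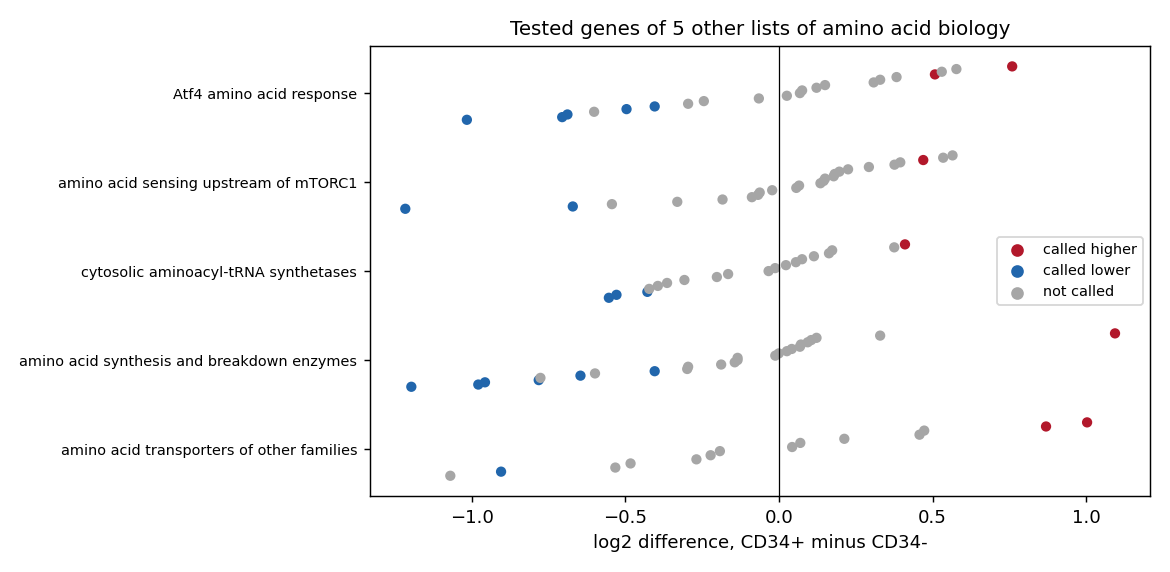
Log2 difference, CD34+ minus CD34-, of each tested gene in 5 other lists of amino acid biology, 1 point per gene, sorted within a list. Called genes lie on both sides of 0 in every list, and Oat at -1.20 and Arg1 at 1.09 lie near the ends of the enzyme list.

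Markers of other skin cells differed between the same arrays. The 5 tested genes of the T cell list all fell in CD34+ cells, among them Ptprc and Thy1, which are not limited to T cells. The log2 of the summed signal of the 8 genes of this list was 9.13 to 11.40 on CD34+ arrays and 11.76 to 12.70 on CD34- arrays. All 5 tested fibroblast genes were higher, with a summed signal of 9 genes of 12.14 to 13.76 on CD34+ arrays and 9.81 to 10.51 on CD34- arrays. Of 11 tested genes of myeloid and antigen presenting cells 6 were higher, with summed signals that overlapped at 12.81 to 14.19 on CD34+ arrays and 12.29 to 13.01 on CD34- arrays. The brightest gene of the T cell list, Ptprc, averaged 9.10 ± 1.12 in CD34+ samples (SD, n = 5) and 10.90 ± 0.41 in CD34- samples (SD, n = 6). The brightest fibroblast marker, Col1a2, averaged 11.70 ± 0.63 in CD34+ samples (SD, n = 5) and 8.21 ± 0.37 in CD34- samples (SD, n = 6). The T cell genes Cd3d, Cd247 and Cd2 and the fibroblast genes Col1a1, Col3a1, Lum and Dpt were under the brightness filter. Of the bulge stem cell markers 9 of 10 tested were higher and 1 lower, with summed signals of 15.92 to 16.74 on CD34+ arrays and 15.29 to 15.68 on CD34- arrays. This list includes Cd34, by which the cells were separated, and the lower gene was Itga6 (-0.53, adjusted p = 0.00214). Of all tested genes 12.4% were called higher and 12.3% lower. Of keratinocyte markers 1 of 7 was higher and 2 lower, with sums of 16.93 to 17.34 and 16.94 to 17.35 on CD34+ and CD34- arrays. Melanocyte markers had 1 higher and 1 lower of 8 tested, Schwann cell markers 1 higher and 1 lower of 3, and muscle markers 1 higher of 1. No endothelial marker (2 tested) and no sebocyte or adipocyte marker (3 tested) was called. The part of these cells in the differences of the transporter genes was not tested.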

How the data were processed

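Total RNA was labelled with biotin and hybridised to single-channel Affymetrix arrays, 5 of CD34+ and 6 of CD34- cells, grouped by the sample titles. The authors deposited 1 log2 value per probe set and array, and per the submitters' processing notes MAS5 was used; the scale was read from the values. Its settings were not given in the labels. No detection calls were used, so a low value means dim. The number of arrays limits the precision.

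Of 45101 probe sets 34945 had 1 symbol. Each gene was read from its probe set with the highest mean, and the dimmest 40% of genes were left out. The groups were compared with limma 3.58.1 in R 4.3.3 (intensity trend, prior degrees of freedom 5.5, Benjamini-Hochberg adjustment over 10916 genes), a step tested on simulated data. Differences are CD34+ minus CD34-. Other probe sets were tested in a fit of every probe set by itself. Members, roles and lists were chosen with earlier results of these data known. Named genes are all called members, both heavy chains, the brightest member of each role, close relatives of these, and the 3 genes with the smallest p in each direction of each list of amino acid biology. Some list genes had no probe set with 1 symbol and were not analysed here. Marker lists covered T cells, myeloid cells, fibroblasts, endothelium, muscle, melanocytes, Schwann cells, sebocytes and adipocytes, bulge and keratinocytes.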

Additional observations from a re-analysis of the deposited data

Results flagged for a closer look

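In 5 of 56 groups of values of the tested transporter genes, 1 array lay far from the rest by Dixon's gap ratio, which chance alone gives in about 1 of 20 groups. On CD34+ array 1 the log2 signal was low in 3 genes: 4.79 in Slc7a5, next to 7.03, 8.01 in Slc43a2, next to 11.31, and 6.85 in Slc6a4, next to 8.55. Slc6a8 was high on CD34+ array 3 at 12.26, and Slc1a4 was low on CD34- array 2 at 8.73.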

How the results depend on the processing

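The counts of transporter genes, 5 higher and 6 lower, were 4 to 6 and 2 to 6 when single arrays were left out, with 3 lower without CD34- array 3 and 2 without CD34- array 4. In those fits 8.88% to 12.6% of all tested genes were higher and 8.21% to 13% lower. The lower share was 8.5% without CD34- array 3 and 8.21% without CD34- array 4. With equal array medians the counts of transporter genes were 2 and 15 (51.4% of all tested genes called, 47.8% lower). At an adjusted p under 0.01 they were 2 and 1 (9.2% of all called), and 0 and 0 with the actin covariate, where 1.15% of all tested genes were called. The exact rank-sum test gave 3 higher (9.95% of all tested genes), and leaving out CD34+ arrays 1, 2 and 3 gave 2 lower (8.71%). The brightest 40% of genes gave 3 lower (16.3% of the genes tested there). Slc1a1, Slc1a3 and Slc7a5 were too dim to be tested in that fit, while Slc7a1, Slc7a6 and Slc6a4 kept their calls. For the other lists of amino acid biology, 7 higher and 16 lower, leaving out single arrays gave 4 to 8 and 9 to 17. Equal array medians gave 1 and 49 there, near the 47.8% of all genes called lower, an adjusted p under 0.01 gave 2 and 5, and the actin covariate gave 0 and 1. The mean of probe sets gave 3 higher in these lists (8.91% of all tested genes) and the exact rank-sum test 10 lower (10.1%). Where a gene was called in the main fit or in the alternative, a sign turned in 5 cases. These were Slc6a8 (-0.42), Lamtor1 (-0.011) and Aars (-0.070) with equal array medians, Slc15a4 with the mean of probe sets (0.020) and Rars with the actin covariate (0.059). Turns without a call in either fit, such as that of Slc43a2 without CD34+ array 1, are not counted here. The causes were not tested. Same-numbered arrays of the groups correlated by 0.02 to 0.19 once the group means were removed, which does not settle if the numbers pair the samples. The replicate block gave 5 higher and 6 lower transporter genes and 5 and 11 genes of the other lists, with 9.55% of all tested genes higher and 9.08% lower. Dim values limit Slc38a4, Slc1a1, Slc1a3 and Slc7a5. The comparison of Slc7a5 with Slc3a2 without CD34+ array 1 was chosen after seeing the data.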

Other observations

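Some transporter genes that were not called had a dimmer probe set that was called in the fit of every probe set by itself. For the glutamine and alanine carrier Slc38a2 it rose (0.49, adjusted p = 0.0222), while the brightest gave 0.27. For the creatine carrier Slc6a8 the dimmer probe set fell (-0.84, adjusted p = 0.0219), while the brightest gave 0.06. Slc36a2, a proton-coupled carrier of small amino acids with 1 probe set, was called higher in that fit (0.81, adjusted p = 0.0447), where the filter admitted dimmer values. Its difference lies near the median of all genes under the main filter, which was 0.70.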
